A study of Mus musculus with 16 samples.

Results

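Collagen chain genes encode the subunits of collagens, the main fibrous and sheet-forming proteins of the extracellular matrix. They were taken as every gene whose Ensembl identifier maps to a mouse symbol made of Col, a type number, the letter a and a chain number. The annotation holds 44 such genes, and 38 of them are among the 23306 genes of the table. Col13a1, Col19a1, Col22a1, Col6a4, Col6a5 and Col9a1 were not analysed here. The 38 genes were placed by textbook class into 11 fibrillar chains, 9 basement membrane chains and 18 other chains. Genes of all kinds were tested where 4 or more libraries held a value of 10 or higher, which 32 of the 38 did, namely 10 fibrillar, 9 basement membrane and 13 other chains. Col2a1, Col6a6, Col8a2, Col9a2, Col25a1 and Col28a1 stayed below it.

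The study grew organoids from the epithelial lining of the mouse uterus, the endometrial epithelium, and asked how deletion of the TGF-beta receptor gene Tgfbr2 and treatment with ovarian hormones act on them. Each of 4 groups had 4 libraries of bulk RNA sequencing. The cKO organoids came from animals labelled Tgfbr2 PRcre+, in which a Cre recombinase under control of the progesterone receptor gene acts on Tgfbr2, and the control organoids from animals labelled Tgfbr2 FF, for which the labels list no Cre. After 2 days of culture, E2/MPA organoids received 10 nM E2 for 2 days and then 10 nM E2 with 1 µM MPA for 4 days, and vehicle organoids received vehicle for 6 days. The labels do not spell out the names, which in this field stand for the estrogen estradiol and the synthetic progestin medroxyprogesterone acetate. The groups were cKO E2/MPA (M13 to M16), cKO vehicle (M5 to M8), control E2/MPA (M9 to M12) and control vehicle (M1 to M4). Whether the 4 libraries of a group stem from different animals is not in the labels. The p-values therefore set group differences against the spread among these libraries, which may be technical.

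Fibrillar collagens such as types I, III and V build the cable-like fibrils of connective tissue and are made mainly by stromal fibroblasts. Basement membranes, the thin sheets on which epithelia rest, hold networks of type IV collagen together with types XV and XVIII, and type VII anchors them to the tissue below. The remaining chains include the beaded filaments of type VI, the fibril-associated collagens such as types XII and XVI, short-chain network collagens, and collagens that span the cell membrane such as types XVII and XXIII. In the uterus, collagen of the endometrial stroma is remodelled under estrogen and progesterone over the cycle and in pregnancy, and TGF-beta is a classic inducer of fibrillar collagen genes in fibroblasts.

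Values are normalized read counts, that is reads of a gene divided by a size factor per library. Recovered depth was 14372111 to 20016836 reads per library. All 9 epithelial markers checked, among them Epcam and Krt8, were read in every library, with summed levels of 120248 to 191327. Libraries M16, M8, M12 and M4, 1 in each group, stood apart in markers of several cell types, most in those of fibroblasts. The summed level of 11 such markers was 5268 in M16 against 397 to 595 in M13 to M15, and 4100.0 in M8 against 313 to 340 in M5 to M7. It was 6684 in M12 against 217 to 2160 in M9 to M11, and 6605 in M4 against 191 to 1461 in M1 to M3. The remaining 1 of 12 markers, Fbln1, was left out of these sums because it had 4309.8 or more in every library. Fbln1 went the other way, lowest of its group in M16 (13126), M8 (8125), M12 (7818) and M4 (4309.8). With Fbln1 included, none of these 4 libraries had the highest sum of its group. Dpt was at 0 in 12 of 16 libraries. Summed levels of 8 smooth muscle markers were also higher in these libraries, at 2614 in M16, 1974 in M8, 4052 in M12 and 3459 in M4, against 938 to 1603 in the 12 others. The same libraries were the highest of their groups for the summed endothelial and epithelial markers. They were also the highest for the mean log2 level of mesothelial markers (6.49 in M16, 4.97 in M8, 8.06 in M12 and 6.10 in M4). For the summed macrophage and leukocyte markers this did not hold in cKO vehicle and control vehicle organoids. Most of the endothelial sum in these libraries came from Kdr, at 133 in M16, 136 in M8, 188 in M12 and 471 in M4. Not all endothelial markers followed it. Cdh5 was the lowest of its group in M8 (20.1) and M16 (24.7) but the highest in M4 (68.8). Vwf was the lowest of its group in M8 (13.4) and in M12. Tgfbr2 had 3941, 4269, 3568 and 5526 in cKO E2/MPA, 4035, 4304, 3520.1 and 5439 in cKO vehicle, 5152, 4377, 4103 and 7794 in control E2/MPA and 6101, 5047, 4852 and 8054 in control vehicle organoids. These values count reads anywhere in Tgfbr2. Which part of the gene is removed is not in the labels, so the values are no check of the genotype.

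Which collagen led depended on the library. Taken per kb of exon, the mean over the 16 libraries was highest for the type I chain Col1a1 (693 per kb), followed by Col6a1 (365), Col1a2 (249.5), Col4a1 (249) and Col3a1 (237). By the median per kb, which few libraries cannot pull up, the basement membrane chain Col18a1 led with 186, followed by Col16a1 with 133, Col1a1 with 114 and Col6a1 with 104. Col1a1 was the top chain per kb in M1, M4, M8, M9, M12, M14 and M16. Col18a1 was on top in M2, M3, M5, M6, M7, M13 and M15, and Col16a1 in M10 and M11. All collagen chains together made up 0.0256% to 0.548% of the normalized counts of a library, and M16, M8, M12 and M4 had the largest share of their groups.

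**Figure D1:**
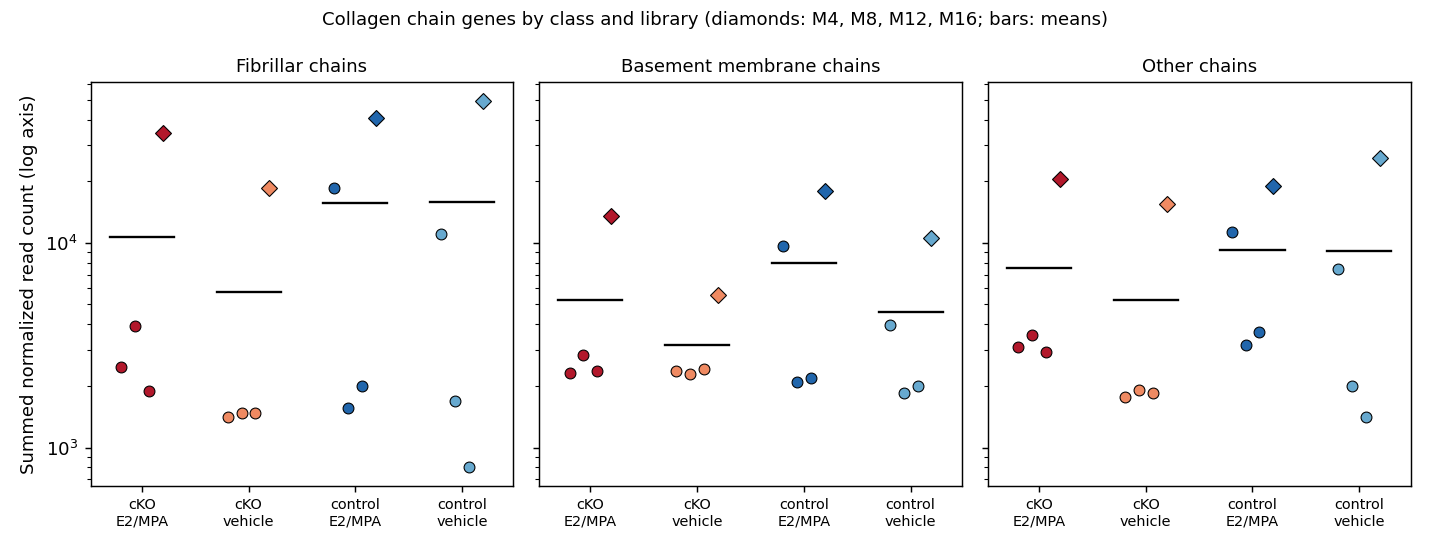
Summed normalized read count of the fibrillar, basement membrane and other collagen chains in each library (log axis), with 4 libraries per group and bars at the group means. Diamonds mark M16, M8, M12 and M4. The fibrillar sums of these 4 libraries run from 18552 to 49468, and those of the 12 others from 799 to 18477.

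The fibrillar chains varied most. Col1a1 (ENSMUSG00000001506, chromosome 11), which encodes the alpha-1 chain of type I collagen, had 817, 1433, 646 and 10805 in cKO E2/MPA and 552, 564, 576 and 7022 in cKO vehicle organoids. Its levels in control organoids were 5954, 473, 673 and 14509.9 under E2/MPA and 4658, 661, 326 and 23062 under vehicle. The last library of each group was the highest, M9 and M1 were second in their groups, and every group overlapped every other. Its partner in type I collagen, Col1a2 (ENSMUSG00000029661, chromosome 6), had 716, 875, 499 and 8535 in cKO E2/MPA, 380.3, 412, 344 and 4876 in cKO vehicle, 5698, 398, 534 and 10829.6 in control E2/MPA and 3014, 455, 182 and 11862 in control vehicle organoids. The type III chain Col3a1 (ENSMUSG00000026043, chromosome 1), a partner of type I in pliable tissue, had 557, 916, 379.6 and 9497 in cKO E2/MPA, 175, 254, 207 and 3227 in cKO vehicle, 3884, 341, 373 and 8199 in control E2/MPA and 1617, 282, 87.6 and 7191 in control vehicle organoids. Like Col1a1, both were highest of their group in M16, M8, M12 and M4, followed by M9 in control E2/MPA and M1 in control vehicle organoids.

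The same 4 libraries were the highest of their groups for 19 of the 32 tested chains, against 12.1% of the 16509 tested genes. They were so for 8 of 10 fibrillar, 6 of 9 basement membrane and 5 of 13 other chains. The median fibrillar chain stood 13.1-fold above the median of the other libraries of its group in M16, 12.9-fold in M8, 20.9-fold in M12 and 27.7-fold in M4. The corresponding values of the median basement membrane chain were 3.28, 1.26, 3.46 and 2.30, and those of the median other chain 2.27, 2.00, 1.17 and 4.05. Collagen levels and fibroblast markers therefore moved together between libraries of 1 group, and the part of the markers in the collagen levels was not tested beyond the fit with a marker covariate given below. In bulk RNA, fewer cells of a type and less RNA per cell cannot be told apart.

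**Figure D2:**
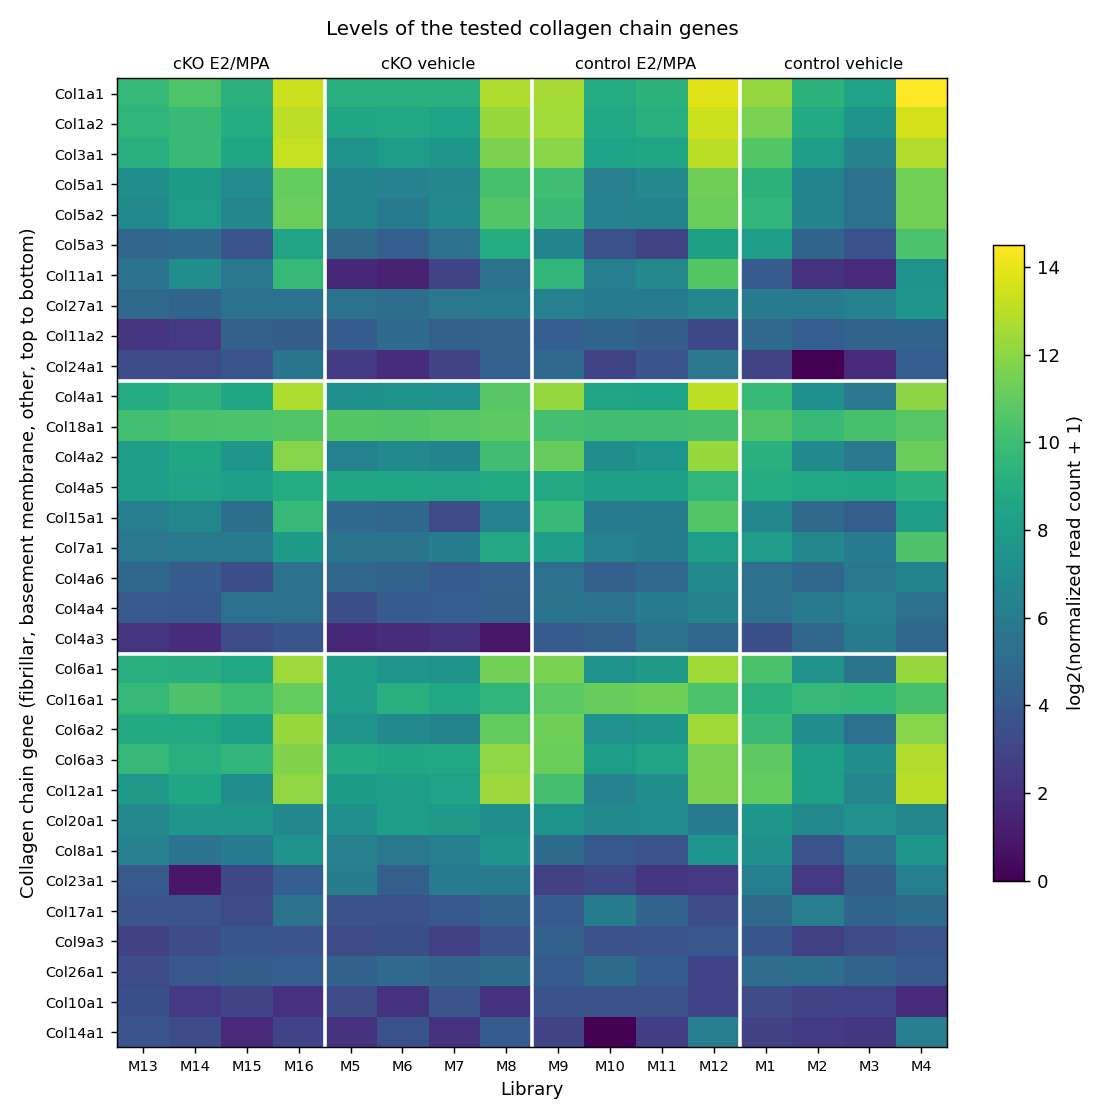
Level of each of the 32 tested collagen chain genes (rows, fibrillar, basement membrane and other chains from top to bottom) in each of 16 libraries (columns), as log2(normalized read count + 1). The last column of each group (M16, M8, M12, M4) is brightest for most fibrillar chains, while Col18a1, Col4a5, Col16a1 and Col20a1 vary less across columns.

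Some chains followed these 4 libraries weakly or not at all. Col18a1 (ENSMUSG00000001435, chromosome 10), whose product is a basement membrane collagen that releases endostatin, varied least of all, 1.98-fold between its lowest and highest library. It had 1116, 1264, 1352 and 1532 in cKO E2/MPA, 1646, 1508, 1698 and 1827 in cKO vehicle, 1152, 1064, 1054 and 1168 in control E2/MPA and 1536, 922, 1217 and 1692 in control vehicle organoids. Col4a5 (ENSMUSG00000031274, chromosome X), an alpha chain of type IV collagen found in specialised basement membranes, spanned 2.55-fold. Its levels were 279.6, 319.7, 291 and 481 in cKO E2/MPA, 365, 381, 357 and 461 in cKO vehicle, 430.3, 289, 316 and 713 in control E2/MPA and 485, 401, 381 and 619.8 in control vehicle organoids. Both chains were still highest in the last library of each group, by 1.10-fold to 2.25-fold over the median of the others. Col20a1, a fibril-associated chain chosen after its values were seen, was lower in these libraries, at 0.483 to 0.652 of that median. For comparison, the span between lowest and highest library had a median of 70.8-fold over 9 fibrillar chains without a 0 and 30.2-fold over the 9 basement membrane chains.

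The comparison of E2/MPA with vehicle asked how the hormones changed the collagen genes in each genotype. Col16a1 rose in both, and it was the 1 collagen chain gene past the threshold in each (limma on log2 values, Benjamini-Hochberg adjusted p under 0.05 over 16509 genes). Its product is a fibril-associated collagen found at the edge of fibrils and near basement membranes. In cKO organoids 1 of 32 chains passed, against 4.19% of all tested genes in either direction, and in control organoids 1 of 32 against 8.9%. On the recovered reads, edgeR called 1 of 32 in cKO (against 4.11% of all genes) and 2 of 32 in control organoids (against 9.07%), and DESeq2 called 3 (against 7.6%) and 2 (against 13.2%). At an unadjusted p under 0.05 there were 6 chains of 32 in cKO organoids, where 18.6% of all genes stood, and 4 of 32 in control organoids, where 23.9% stood. In these fits the collagen chains as a group were thus called at about the rate of all genes or less. The fit with a fibroblast marker covariate, given below, called a larger share of the chains than of all genes.

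Col16a1 (ENSMUSG00000040690, chromosome 4) had 801, 1374, 991 and 2141 in cKO E2/MPA organoids, against 248, 536, 398 and 713 in cKO vehicle organoids. Control organoids had 1777, 2198, 2481 and 1365 under E2/MPA, against 646, 801, 783 and 1263 under vehicle. All E2/MPA libraries lay above all vehicle libraries of the same genotype. Of the libraries high in fibroblast markers, M12 was the lowest of its group, while M16, M8 and M4 were the highest of theirs. The mean was 1326 ± 593 in cKO E2/MPA and 474 ± 198 in cKO vehicle organoids, and 1955 ± 489 in control E2/MPA and 873 ± 269 in control vehicle organoids (SD, n = 4 each). The log2 fold change was 1.49 in cKO (SE 0.34, limma adjusted p = 0.0224) and 1.17 in control organoids (SE 0.34, limma adjusted p = 0.0438). The calls rested on single libraries. In cKO organoids limma's adjusted p was 0.0712 without M5, 0.0689 without M7, 0.071 without M14 and 0.0534 without M16. For the control difference it was 0.134 without M1, 0.0688 without M2, 0.0834 without M3, 0.0748 without M9, 0.124 without M10 and 0.131 without M11, and 0.0536 to 0.0572 without M6, M7, M14 or M15 of the other groups. The log2 fold change stayed at 1.21 to 1.72 in cKO and 1.04 to 1.56 in control organoids over all 30 alternatives.

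The promoter window of Col16a1, 250 bases before to 50 bases after the RefSeq start, is shown because it is the called chain. It lies at chr4:130047590-130047889 on the plus strand of GRCm38.p6 (RefSeq), and capitals mark its 2 GC boxes (GGGCGG, on either strand).
Col16a1: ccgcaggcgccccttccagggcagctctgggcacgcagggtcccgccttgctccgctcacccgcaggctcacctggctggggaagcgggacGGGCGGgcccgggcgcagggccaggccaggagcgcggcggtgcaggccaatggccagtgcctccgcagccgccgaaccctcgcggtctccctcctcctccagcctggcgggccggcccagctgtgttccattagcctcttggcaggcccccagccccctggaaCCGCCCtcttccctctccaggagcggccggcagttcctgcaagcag
GC boxes were in 35.7% of all 32851 RefSeq windows and in 21 of 32 windows of the collagen chain genes, which cover 30 of the 38 members. The Col16a1 window was 74.3% G or C, against a median of 52.7% over all windows. The part of base composition in the GC box count was not tested. The palindrome bound by the progesterone and glucocorticoid receptors (GNACA and TGTNC with 3 bases between) was in 0.475% of all windows and in 0 of the 32. The estrogen response element (GGTCA and TGACC with 3 bases between) was in 0.07% of all windows and in 0 of the 32. Both strands were searched, and the absence of these letters from the windows says nothing about sites elsewhere.

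**Figure D3:**
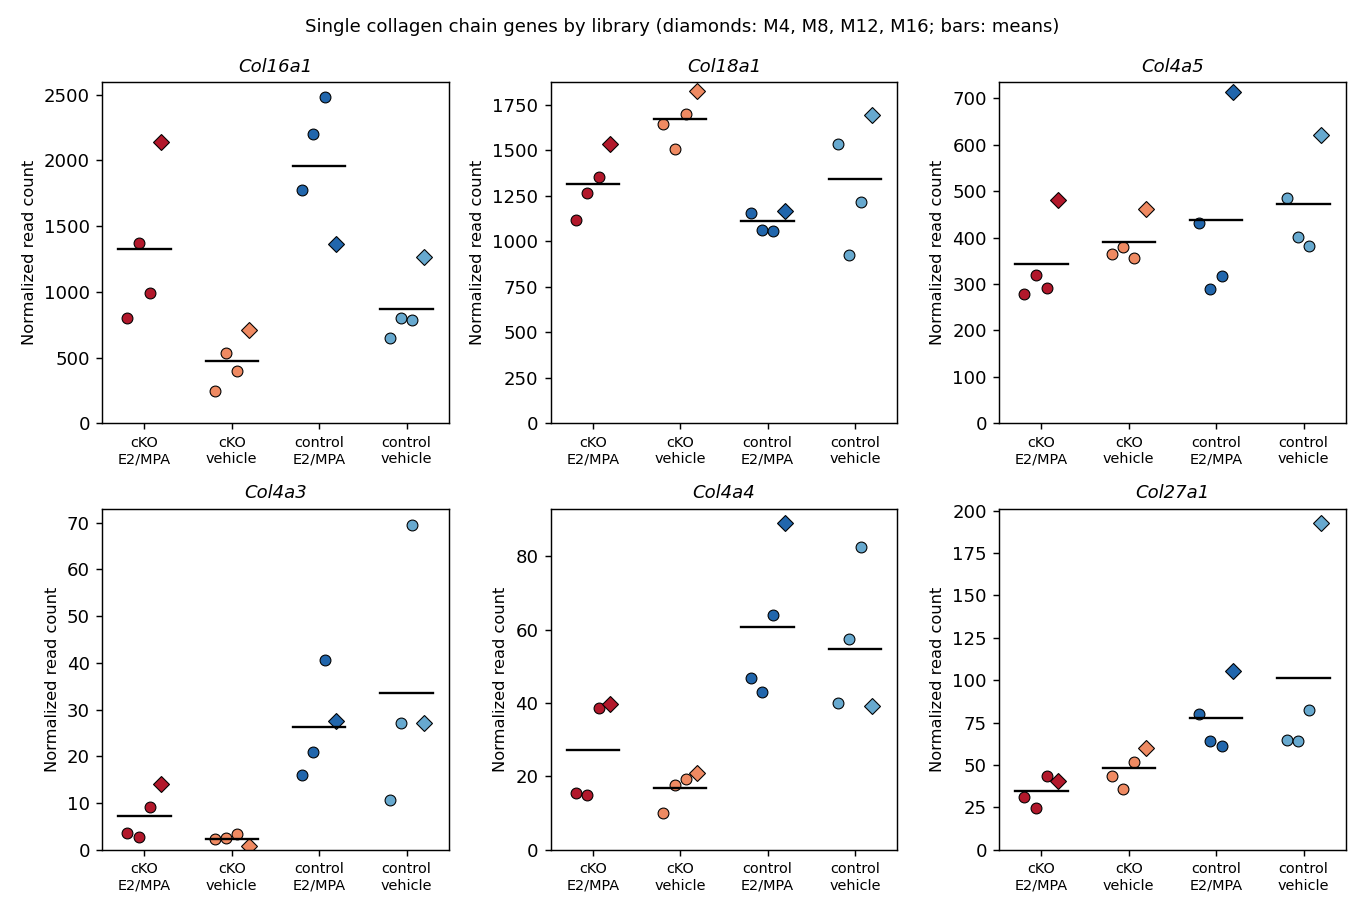
Normalized read counts of Col16a1, Col18a1, Col4a5, Col4a3, Col4a4 and Col27a1 in each of 16 libraries (linear axes from 0), with bars at the group means and diamonds for M16, M8, M12 and M4. For Col16a1 the E2/MPA points lie above the vehicle points of the same genotype, and for Col4a3, Col4a4 and Col27a1 the cKO points lie below the control points of the same treatment.

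Among the fibrillar chains, 0 of 10 passed limma's adjusted threshold in either genotype, and 2 of 10 had an unadjusted p under 0.05 in each. edgeR called 0 of 10 in either genotype, and DESeq2 called Col11a1 in cKO organoids (adjusted p = 0.0334). The largest difference was that of Col11a1 (ENSMUSG00000027966, chromosome 3), which encodes a chain of type XI collagen, a minor fibrillar collagen best known from cartilage; it was chosen after its values were seen. Col11a1 had 44.0, 136, 51.3 and 829 in cKO E2/MPA organoids, against 2.24, 1.68, 6.78 and 43.5 in cKO vehicle organoids. The control organoids had 742, 72.0, 114 and 1621 under E2/MPA, against 16.6, 3.39, 2.45 and 176 under vehicle. The cKO groups did not overlap, by the margin between M13 and M8, and in control organoids M4 lay above M10 and M11. The log2 fold change was 4.11 in cKO (SE 1.38, limma adjusted p = 0.114) and 4.43 in control organoids (SE 1.38, limma adjusted p = 0.0591). Without M4, M8 or M16 the control difference passed limma's test, at an adjusted p of 0.0171, 0.0481 and 0.0486, and it ran up to 0.134 without other single libraries.

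The median log2 fold change of the fibrillar chains was 0.74 in cKO and 0.38 in control organoids, beside -0.0039 and -0.00077 over all tested genes. Leaving out single libraries moved it between -0.17 and 1.66 in cKO and between -0.45 and 1.47 in control organoids. Col1a1 had a log2 fold change of 0.67 in cKO and 0.06 in control organoids, with an SE of 1.44 in both, and Col3a1 had 1.49 and 0.95, with an SE of 1.48. For these chains a difference of that size was not detectable against the spread between libraries. Col24a1, a fibrillar chain of developing bone and eye chosen after its values were seen, had 9.52, 8.81, 12.5 and 48.4 in cKO E2/MPA and 4.49, 2.52, 6.78 and 22.6 in cKO vehicle organoids. Control organoids had 29.8, 7.00, 13.0 and 51.7 of it under E2/MPA and 6.84, 0, 2.45 and 19.2 under vehicle. Its limma adjusted p was 0.578 in cKO and 0.164 in control organoids.

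The basement membrane chains had 0 of 9 past limma's adjusted threshold in either genotype, with 2 of 9 in cKO and 0 of 9 in control organoids at an unadjusted p under 0.05, and 0 of 9 by edgeR and by DESeq2 in both. Col4a1 (ENSMUSG00000031502, chromosome 8) and Col4a2 (ENSMUSG00000031503, chromosome 8) encode the chains of the type IV network present in nearly all basement membranes. Col4a1 had 491, 675, 361 and 6629 in cKO E2/MPA organoids, against 151, 172, 160.4 and 1671 in cKO vehicle organoids. Control E2/MPA organoids had 4649.8, 358, 345 and 8935, against 906, 156, 55.6 and 4006 in control vehicle organoids. The groups overlapped, because M8, M4 and M1 lay among or above E2/MPA libraries. Col4a2 had 246, 374, 200.6 and 3684 in cKO E2/MPA and 80.8, 119, 91.5 and 1075 in cKO vehicle organoids. Under E2/MPA the control organoids had 2246, 145, 198 and 4956 of Col4a2, against 592, 119.7, 53.2 and 2395 under vehicle. Col4a1 differed by 1.70 on the log2 scale in cKO (SE 1.42, limma adjusted p = 0.581) and by 1.83 in control organoids (SE 1.42, adjusted p = 0.472), and Col4a2 by 1.53 (adjusted p = 0.615) and 1.28 (adjusted p = 0.629).

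Col4a1 and Col4a2 lie head to head, with RefSeq starts 21 bases apart, so their promoter windows share 78 bases. The window of Col4a1 is shown for this shared stretch. It lies at chr8:11312777-11313076 on the minus strand of GRCm38.p6 (RefSeq), and capitals mark the bases that also belong to the window of Col4a2.
Col4a1: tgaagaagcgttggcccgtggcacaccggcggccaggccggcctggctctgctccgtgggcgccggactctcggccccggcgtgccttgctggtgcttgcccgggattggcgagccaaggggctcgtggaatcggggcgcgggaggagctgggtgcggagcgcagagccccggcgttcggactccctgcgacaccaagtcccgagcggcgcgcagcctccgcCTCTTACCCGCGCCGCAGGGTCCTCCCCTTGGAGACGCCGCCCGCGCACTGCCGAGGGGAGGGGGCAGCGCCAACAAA
The 2 chains moved together between libraries, with a ratio of Col4a1 to Col4a2 per kb of 0.928 to 2.19, while Col4a1 spanned 160.6-fold and Col4a2 93.2-fold over the same libraries. The Col4a1 window held 1 GC box and the Col4a2 window 3, with neither hormone receptor motif in them.

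Of the other basement membrane chains, Col15a1 (ENSMUSG00000028339, chromosome 4), which links basement membranes to the fibrils below, had 73.8, 100.4, 36.5 and 829 in cKO E2/MPA organoids, against 32.5, 28.6, 9.03 and 85.3 in cKO vehicle organoids. Its control levels were 829, 63.0, 66.5 and 1578 under E2/MPA, against 109.5, 31.6, 19.6 and 279 under vehicle. All 4 groups overlapped their counterpart, and limma's adjusted p was 0.399 in cKO and 0.328 in control organoids for log2 fold changes of 2.03 and 2.02 (SE 1.20). Col18a1 differed by -0.35 in cKO (SE 0.15, limma adjusted p = 0.226) and by -0.24 in control organoids (SE 0.15, adjusted p = 0.363). Without M2 the control difference of Col18a1 was -0.40 with an adjusted p of 0.0434. Col7a1, the anchoring fibril collagen, averaged 100.3 ± 90.9 in cKO E2/MPA and 146 ± 185 in cKO vehicle, and 175 ± 118 in control E2/MPA and 455 ± 631 in control vehicle organoids (SD, n = 4 each). The median log2 fold change of the 9 chains was 0.55 in cKO and -0.14 in control organoids.

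Among the other chains, Col6a1 (ENSMUSG00000001119), Col6a2 (ENSMUSG00000020241) and Col6a3 (ENSMUSG00000048126) assemble into the beaded filaments of type VI collagen around cells. Col6a1 had 541, 513, 396 and 5293 in cKO E2/MPA, 266, 185, 174 and 2803 in cKO vehicle, 3056, 173, 231 and 5471 in control E2/MPA and 1296, 176, 45.8 and 4988 in control vehicle organoids. Col6a2 ranged from 310.0 to 4814 in cKO E2/MPA and 91.5 to 2083 in cKO vehicle organoids, and from 158 to 5496 in control organoids under E2/MPA against 38.5 to 3761 under vehicle. The corresponding ranges of Col6a3 were 534 to 3396, 365 to 4153, 267 to 3036 and 146 to 7106. None of the type VI chains passed limma's test, and every pair of groups overlapped. The log2 fold change of Col6a1 was 1.15 in cKO (limma adjusted p = 0.752) and 0.91 in control organoids (adjusted p = 0.765).

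Col23a1 (ENSMUSG00000063564, chromosome 11), a collagen that spans the cell membrane and was chosen after its values were seen, was the member with the most negative difference. It had 15.5, 0.881, 7.98 and 19.4 in cKO E2/MPA organoids, against 70.7, 20.2, 61.0 and 63.6 in cKO vehicle organoids. Its control values were 5.72, 8.00, 3.46 and 4.40 under E2/MPA, against 75.3, 4.52, 18.0 and 76.0 under vehicle. The cKO groups did not overlap, by the margin between M16 and M6, and in control organoids M2 lay among the E2/MPA libraries. The log2 fold change was -2.52 in cKO (SE 0.84, limma adjusted p = 0.111) and -2.18 in control organoids (SE 0.84, limma adjusted p = 0.123). On the recovered reads the control difference passed with edgeR (adjusted p = 0.0371) and with DESeq2 (0.00346), and the cKO difference with DESeq2 (0.0414). Without M2 the control difference was -2.96, with a limma adjusted p of 0.0234. The median log2 fold change of the 13 other chains was -0.07 in cKO and -0.29 in control organoids.

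In cKO organoids the libraries of the groups did not overlap for 2 of 32 chains that were higher under E2/MPA (Col11a1 and Col16a1, against 8.01% of all tested genes) and for 2 that were lower (Col23a1 and Col26a1, against 5.8%). In control organoids this held for 1 chain that was higher (Col16a1, against 6.66%) and for 0 that were lower (against 5.49%).

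**Figure D4:**
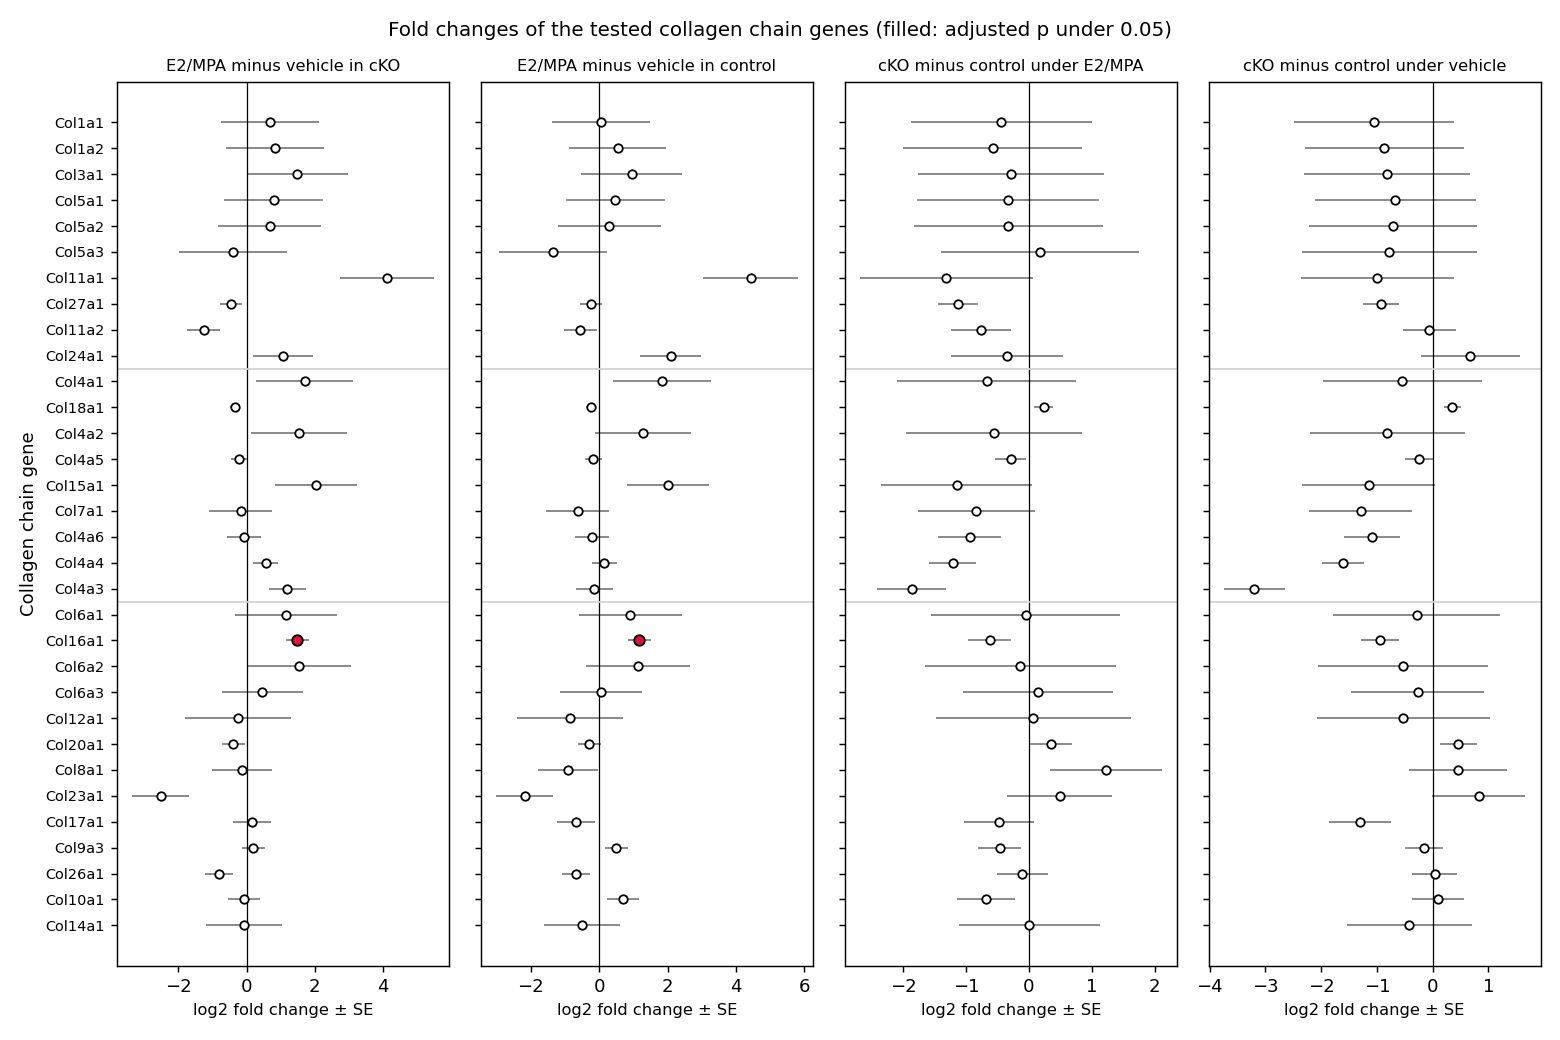
Log2 fold changes of the 32 tested collagen chain genes with their SE, for E2/MPA minus vehicle in cKO and in control organoids and for cKO minus control under E2/MPA and under vehicle (note the different ranges of the axes). Filled points have a limma adjusted p under 0.05. Col16a1 is the filled point in both hormone panels, and no point is filled in the genotype panels.

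More chains were called once the fibroblast marker level entered the fit. That level, the mean log2 value of the 12 markers, includes Fbln1, which was left out of the sums above. Whether the markers themselves respond to the hormones was not tested. Among them, Thy1 had 116 in M16 and 81.4 in M12 under E2/MPA, against 549 in M8 and 807 in M4 under vehicle. Dcn went the other way in the same libraries, at 2045 and 1980 against 1156 and 1242. The mean log2 level of the markers was 3.97 to 7.23 in cKO E2/MPA and 3.79 to 6.64 in cKO vehicle libraries. Among control libraries it was 3.28 to 7.55 under E2/MPA, against 3.14 to 7.40 under vehicle. With it as a covariate, limma called 9 of 32 chains in cKO organoids, against 16.0% of all genes, and 12 of 32 in control organoids, against 21.9%. Col3a1, Col4a1, Col4a2, Col6a2, Col11a1, Col15a1 and Col16a1 were called higher under E2/MPA in both genotypes, and Col23a1 was called lower in both. In cKO organoids Col18a1 was also called lower, and in control organoids Col6a1 and Col24a1 were also called higher and Col5a3 and Col12a1 lower. In the covariate fit Col4a1 differed by 1.27 in cKO (limma adjusted p = 0.000524) and by 1.81 in control organoids (adjusted p = 1.56e-05), and Col11a1 by 3.71 (3.28e-05) and 4.40 (3.67e-06). Leaving out M1, M4, M8, M9, M12 and M16, the libraries with the highest fibroblast marker level, a choice made after the data were seen, gave 10 of 32 chains in cKO organoids against 13.9% of all genes, and 5 of 32 in control organoids against 13.7%. The control groups then had 2 libraries each and the cKO groups 3 each.

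The chains that vary with the fibroblast markers can also be set against each other within a library. The level per kb relative to Col1a1 was computed for the 18 other chains with a mean of at least 100, as a description chosen after the values were seen. For 5 of the 18 the 8 E2/MPA libraries did not overlap the 8 vehicle libraries, against 0.151% of 10575 genes with a mean of at least 100, most of which do not vary with Col1a1. Col4a1 stood at 0.414 to 0.539 of Col1a1 in cKO E2/MPA and 0.209 to 0.268 in cKO vehicle, and at 0.450 to 0.687 in control E2/MPA, against 0.150 to 0.207 in control vehicle organoids. This order held in libraries low and high in fibroblast markers alike. The values were 0.539 in M16 against 0.209 in M8, and 0.541 in M12 against 0.153 in M4.

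Col3a1 stood at 0.393 to 0.588 of Col1a1 in cKO E2/MPA and 0.212 to 0.307 in cKO vehicle, and at 0.370 to 0.482 in control E2/MPA, against 0.180 to 0.285 in control vehicle organoids. Col4a2 was at 0.259 to 0.374 in the E2/MPA libraries, against 0.103 to 0.210 in the vehicle libraries. Col11a1 was at 0.0277 to 0.0873 under E2/MPA, against 0.00153 to 0.00606 under vehicle, with medians 18.2-fold apart. In the other direction, Col5a3, the least abundant type V chain, was at 0.00990 to 0.0317 under E2/MPA and 0.0330 to 0.0684 under vehicle. Col1a2 did overlap, at 0.323 to 0.505 under E2/MPA and 0.272 to 0.386 under vehicle. Relative to the type V chain Col5a1 in place of Col1a1, 5 of 18 chains did not overlap (Col4a1, Col4a2, Col5a3, Col11a1 and Col12a1, against 0.217% of genes), and relative to Col6a1, 3 of 18 did not (Col5a3, Col11a1 and Col12a1, against 0.217%). Col5a1 spanned 70.1-fold and Col6a1 119-fold over the libraries. Most of the genes behind these shares do not vary with Col5a1 or Col6a1, so the shares are no yardstick for the chains. A ratio does not say which of its genes moved.

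**Figure D5:**
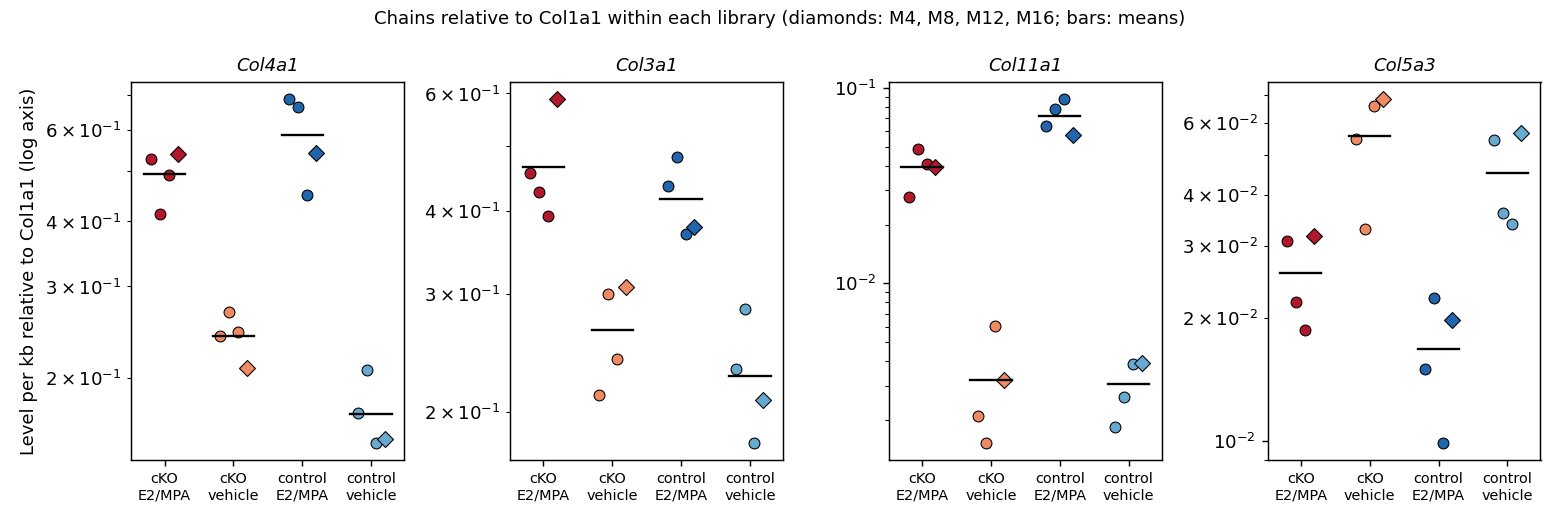
Level per kb of Col4a1, Col3a1, Col11a1 and Col5a3 relative to Col1a1 within each of 16 libraries (log axes), with bars at the group means and diamonds for M16, M8, M12 and M4. Col4a1, Col3a1 and Col11a1 are higher in all 8 E2/MPA libraries than in all 8 vehicle libraries, and Col5a3 is lower, with the diamonds among the other points of their groups.

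The comparison of cKO with control organoids asked whether deletion of Tgfbr2 changed the collagen genes under each treatment. No chain was called by limma. Under E2/MPA 0 of 32 passed, against 0.00606% of all genes, and under vehicle 0 of 32, against 0.0%. At an unadjusted p under 0.05 there were 3 of 32 under E2/MPA, where 10.9% of all genes stood, and 7 of 32 under vehicle, where 5.96% stood. edgeR called 0 of 32 under E2/MPA (against 0.00606% of all genes) and under vehicle (against 0.0%), and DESeq2 called 0 of 32 under E2/MPA (against 1.12%) and under vehicle (against 0.0848%). The cKO level was the lower one for 24 of 32 chains under E2/MPA and for 25 of 32 under vehicle, while 48.09% and 50.23% of all tested genes were higher in cKO. These counts rest on chains that vary together between libraries. The fibrillar median log2 difference was -0.39 under E2/MPA and -0.80 under vehicle, and without single libraries it ran from -1.28 to 0.36 and from -1.77 to 0.24.

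Under vehicle the lowest p-values belonged to a pair of neighbouring type IV genes, and under E2/MPA they followed Col27a1. Col4a3 (ENSMUSG00000079465, chromosome 1) and Col4a4 (ENSMUSG00000067158, chromosome 1) encode chains that join that of Col4a5 in the type IV network of kidney glomeruli and other specialised basement membranes. Col4a3 had 3.57, 2.64, 9.12 and 14.0 in cKO E2/MPA organoids, against 16.0, 21.0, 40.6 and 27.5 in control E2/MPA organoids. Under vehicle it had 2.24, 2.52, 3.39 and 0.837 in cKO organoids, against 10.8, 27.1, 69.6 and 27.2 in control organoids. All cKO libraries lay below all control libraries of the same treatment. The cKO values rest on few reads, 27 over all cKO E2/MPA libraries together and 9 over all cKO vehicle libraries. The log2 difference was -1.87 under E2/MPA (SE 0.55, limma adjusted p = 0.246) and -3.20 under vehicle (SE 0.55, limma adjusted p = 0.149). Over single libraries left out, the adjusted p ran from 0.193 to 0.53 under E2/MPA and from 0.0559 to 0.551 under vehicle. Of the exon bases of Col4a3, 5.65% overlap the gene C430014B12Rik on the opposite strand, and no source used here says whether reads were counted by strand.

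Col4a4 had 15.5, 15.0, 38.8 and 39.8 in cKO E2/MPA organoids, against 46.9, 43.0, 64.0 and 89.1 in control E2/MPA organoids. Under vehicle it had 10.1, 17.6, 19.2 and 20.9 in cKO organoids, against 40.1, 57.6, 82.6 and 39.2 in control organoids. It did not overlap either, and its log2 difference was -1.21 under E2/MPA (SE 0.38, limma adjusted p = 0.252) and -1.62 under vehicle (SE 0.38, limma adjusted p = 0.765). Of the 4 libraries that stood apart, M16 was the highest of its group for both chains, and M8 and M12 for Col4a4, while M8 was the lowest of its group for Col4a3 and M4 the lowest of its group for Col4a4. The promoter window of Col4a4 is shown because Col4a3 starts inside it on the other strand. It lies at chr1:82586800-82587099 on the minus strand of GRCm38.p6 (RefSeq), and capitals mark the first 20 bases of Col4a3, read on the strand of Col4a4.
Col4a4: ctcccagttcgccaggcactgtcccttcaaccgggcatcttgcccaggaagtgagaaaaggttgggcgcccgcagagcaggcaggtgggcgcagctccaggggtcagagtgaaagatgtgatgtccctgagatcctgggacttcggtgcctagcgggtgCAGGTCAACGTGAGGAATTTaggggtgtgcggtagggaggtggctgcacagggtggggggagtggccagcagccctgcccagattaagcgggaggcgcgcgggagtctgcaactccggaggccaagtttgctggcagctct
This window held no GC box and no SMAD palindrome (GTCTAGAC, in 0.213% of all windows). The palindrome is bound by transcription factors downstream of TGF-beta. Shorter SMAD sites were not searched for, and the absence of these letters says nothing about sites elsewhere.

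Col27a1 (ENSMUSG00000045672, chromosome 4), a fibrillar chain known from cartilage and chosen after its values were seen, had 30.9, 24.7, 43.3 and 40.9 in cKO E2/MPA organoids, against 80.1, 64.0, 61.4 and 106 in control E2/MPA organoids. Under vehicle it had 43.8, 36.1, 51.9 and 60.2 in cKO organoids, against 64.5, 64.3, 82.6 and 193 in control organoids. The groups did not overlap under either treatment. The log2 difference was -1.13 under E2/MPA (SE 0.32, limma adjusted p = 0.226) and -0.92 under vehicle (SE 0.32, limma adjusted p = 0.801). Under E2/MPA 3 chains did not overlap and were lower in cKO (Col4a3, Col4a4 and Col27a1, against 2.35% of all genes), with 0 higher (against 3.82%). Under vehicle 5 were lower without overlap (these and Col4a6 and Col17a1, against 1.37%), with 0 higher (against 1.64%). With the fibroblast marker covariate limma called 1 of 32 under E2/MPA (Col27a1, log2 difference -1.11, adjusted p = 0.0355, against 2.28% of all genes) and 0 of 32 under vehicle (against 0.0424%).

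Col4a6, whose gene lies head to head with Col4a5 on the X chromosome, averaged 23.8 ± 13.4 in cKO E2/MPA and 51.7 ± 43.9 in control E2/MPA, and 22.5 ± 4.15 in cKO vehicle and 52.8 ± 27.1 in control vehicle organoids (SD, n = 4 each). Col17a1, which encodes a collagen of the epithelial hemidesmosome, averaged 19.9 ± 16.9 in cKO E2/MPA and 29.3 ± 25.7 in control E2/MPA, and 15.1 ± 5.83 in cKO vehicle and 40.3 ± 20.9 in control vehicle organoids. Both overlapped under E2/MPA. The log2 difference of Col16a1 between cKO and control organoids was -0.63 under E2/MPA (limma adjusted p = 0.536) and -0.94 under vehicle (limma adjusted p = 0.801). Col18a1 ran the other way, at 0.24 under E2/MPA (limma adjusted p = 0.607) and 0.35 under vehicle (adjusted p = 0.824). Without M1, M4, M8, M9, M12 and M16, limma called 4 of 32 chains under E2/MPA (Col4a3, Col6a3, Col8a1 and Col16a1, against 8.44% of all genes) and 3 of 32 under vehicle (Col4a3, Col4a4 and Col18a1, against 3.59%).

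Whether the hormone response of the collagen genes differed between genotypes was asked of the interaction of hormone and genotype. It was called for 0 of 32 chains by limma, against 0.0% of all genes, with 0 at an unadjusted p under 0.05 (against 1.87%) and 0 called by edgeR and DESeq2. It was also 0 of 32 without M1, M4, M8, M9, M12 and M16, against 0.17% of all genes. The interaction estimate of Col16a1, the hormone difference in cKO minus that in control organoids, was 0.31 on the log2 scale (SE 0.48), and that of Col4a3 was 1.34 (SE 0.78). Neither estimate passed limma's test, so responses differing between genotypes by these amounts were not detectable against these errors.

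Genes that act on collagen were called at a rate near that of all genes given above, in cKO organoids 1 of 40 over 3 lists and in control organoids 3 of 40. Of 19 genes of collagen modification and folding, such as the prolyl hydroxylases that stabilise the helix, 18 were tested and P4ha2, a prolyl 4-hydroxylase, rose in control organoids. P4ha2 had 1237, 1218, 1235 and 1338 in control E2/MPA, against 897, 852, 926 and 1016 in control vehicle organoids (log2 fold change 0.45, SE 0.09, limma adjusted p = 0.00851). In cKO organoids it had 1096, 1081, 946 and 1152 under E2/MPA, against 1069, 917, 1071 and 798 under vehicle, with 0 of 18 genes called. The most abundant of the list, P4hb and Plod3, averaged 25902 ± 4859 and 3153 ± 297 in cKO E2/MPA, 17098 ± 5091 and 2939 ± 363 in cKO vehicle, 25331 ± 4839.5 and 2826 ± 260.2 in control E2/MPA, and 18004 ± 8109.9 and 3038 ± 598 in control vehicle organoids (SD, n = 4 each).

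Of 15 genes that trim procollagen or cross-link it, 14 were tested, and Tll1, a protease that removes the procollagen C-propeptide, rose in both genotypes. Tll1 had 719.8, 229.8, 559.7 and 548 in cKO E2/MPA organoids, against 83.0, 81.5, 142 and 122 in cKO vehicle organoids (log2 fold change 2.18, SE 0.34, limma adjusted p = 0.00213). Control organoids had 418, 180.0, 261 and 342 under E2/MPA, against 117, 84.7, 156 and 124 under vehicle (log2 fold change 1.27, SE 0.34, limma adjusted p = 0.0291). Neither pair of groups overlapped. The control call of Tll1 was lost without M1 (limma adjusted p = 0.0729), M2 (0.0624), M4 (0.0518), M9 (0.0836) or M11 (0.0632). It was also lost with only the groups compared in the fit (0.0537), with array weights (0.0603), without M4, M8, M12 and M16 (0.0815) and without M1, M4, M8, M9, M12 and M16 (0.261). Of the most abundant genes of this list, Pxdn, a peroxidase that cross-links type IV collagen, averaged 4423 ± 788 in cKO E2/MPA, 6037 ± 968 in cKO vehicle, 3627 ± 282 in control E2/MPA and 5112 ± 1104 in control vehicle organoids. Sparc, a collagen-binding matrix protein, averaged 2287 ± 3313, 1348 ± 2053, 3909.6 ± 5175 and 2960.0 ± 4272 in the same order of groups.

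Of 9 collagen receptor genes 8 were tested. The integrin gene Itga10 rose in control organoids, with 89.3, 52.0, 47.5 and 92.4 under E2/MPA, against 29.3, 24.8, 27.0 and 34.4 under vehicle (log2 fold change 1.20, SE 0.25, limma adjusted p = 0.00891). In cKO organoids it had 64.2, 40.5, 38.8 and 50.5 under E2/MPA, against 32.5, 54.6, 32.8 and 37.6 under vehicle, and limma's adjusted p was 0.589. Without M1, M4, M8, M9, M12 and M16 the control difference of Itga10 was 0.92 with a limma adjusted p of 0.0987, and with only the groups compared in the fit the adjusted p was 0.0557. The interaction did not pass for P4ha2, Tll1 or Itga10 (limma adjusted p = 1.00 each). The most abundant receptors, Itgb1 and Ddr1, averaged 11832 ± 1829 and 6388 ± 324 in cKO E2/MPA, 13539 ± 4301 and 5575 ± 454 in cKO vehicle, 12545 ± 3398 and 6197 ± 269.5 in control E2/MPA, and 18265 ± 7194 and 5283 ± 369.7 in control vehicle organoids. No gene of the 3 lists was called for genotype under either treatment or for the interaction.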

How the data were processed

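Bulk RNA of 16 organoid libraries was sequenced on a NovaSeq after TruSeq preparation, per the labels' protocols. Alignment and counting tools named in the submitters' processing notes are HISAT2 and featureCounts, beside DESeq2 and the build GRCm39, with no versions. The authors deposited 1 table of normalized read counts, here a signal value per gene and library: each column is whole reads divided by a size factor, and 100% of values came out whole within 0.01 read. Symbols, exon lengths (kb) and overlaps came from the GENCODE M21 annotation of GRCm38, which named 22484 of 23306 genes.

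Tests were fitted with limma 3.58.1 (R 4.3.3) on log2(value + 1) over all 4 groups, for genes with at least 10 in at least 4 libraries (16509 of 23306), and p-values were adjusted by Benjamini-Hochberg over all of them. Fold changes are on that scale, which understates the change of low genes. edgeR 4.0.16 and DESeq2 1.42.0 on the recovered reads were alternatives, beside 12 other settings and leaving out each of 16 libraries. The fits were tested on simulated data. Libraries of 1 group differed by more than counting error (chi-square over degrees of freedom at least 7.70). Each library counted as 1 sample, although this spread does not show that the libraries stem from different animals.

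Named genes were every chain past the threshold, the 3 highest per kb of each class, and the chains of types I, III, IV, VI, VII, XV, XVII and XVIII. Other chains with values given in the text for all 16 libraries are marked as chosen after their values were seen. Further chains are named only where a count, ratio, range or flag lists them. The members and gene lists were chosen with earlier results of these data known. Read counts without molecular identifiers give counting error only. The labels do not pair libraries across groups.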

Additional observations from a re-analysis of the deposited data

Results flagged for a closer look

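In groups of 4 libraries, 12 of the 92 pairs of gene and group examined had a highest or lowest library whose gap to the next one exceeded Dixon's 95% limit for 4 values; chance alone gives about 1 in 20. Of the 12, 8 were high values of cKO vehicle library M8. There Col1a1 had 7022, Col1a2 4876, Col3a1 3227, Col4a1 1671, Col4a2 1075, Col6a1 2803, Col6a3 4153 and Col12a1 5158. In cKO E2/MPA library M16, Col6a1 had 5293, Col6a2 4814 and Col7a1 237, each far above M13 to M15. These libraries also had the highest levels of fibroblast and several other cell type markers in their groups, as given above. Col23a1 had 20.2 in cKO vehicle library M6, far below the 61.0 to 70.7 of M5, M7 and M8. The chains vary together between libraries, so these are not independent flags.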

How the results depend on the processing

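Col16a1 was higher under E2/MPA in all 30 alternatives in both genotypes. Of the 30 alternatives, 25 kept it past the threshold in cKO and 19 in control organoids. The count of called chains of 32 moved with the setting, given here with the share of all genes called. In control organoids it was 0 with no filter on low values (5.72%; adjusted p of Col16a1 0.051), 2 with edgeR (9.07%), 2 with DESeq2 (13.2%), 2 with array weights (15.4%), 2 without M4, M8, M12 and M16 (13.4%), 12 with the fibroblast marker covariate (21.9%) and 5 without M1, M4, M8, M9, M12 and M16 (13.7%). In cKO organoids it was 3 with DESeq2 (7.6%), 0 with only the groups compared in the fit (5.32%; adjusted p of Col16a1 0.0514), 3 with array weights (10.2%), 2 without M4, M8, M12 and M16 (5.81%), 9 with the covariate (16.0%) and 10 without the 6 libraries (13.9%). For genotype it was 2 under E2/MPA (Col4a3, Col27a1; 3.62%) and 1 under vehicle (Col4a3; 0.0303%) with array weights, 1 under E2/MPA with the covariate (2.28%), and 4 (8.44%) and 3 (3.59%) without the 6 libraries. The cause was not tested.

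The labels do not pair libraries. A replicate block of libraries 8 numbers apart (correlation 0.496) called 6 of 32 chains in cKO and 5 of 32 in control organoids, against 18.8% and 27.1% of all genes, and 0 for genotype and interaction. Beside Col16a1, it called Col11a1 in both (adjusted p = 0.00359 in cKO and 0.00137 in control organoids, limma) and Col23a1 in both (0.0124 and 0.0190). It also called Col18a1 (0.0367), Col11a2 and Col26a1 in cKO and Col24a1 (0.00977) and Col15a1 (0.0496) in control organoids.

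Leaving out 1 library gave 0 to 1 called chains in cKO and 0 to 2 in control organoids, and 0 to 0 for genotype and interaction. The control log2 fold change of Col1a1 was -0.42 with edgeR and -0.40 with DESeq2, and ran from -0.85 to 1.19 over libraries left out. In cKO organoids Col1a1 ran from -0.22 to 1.58, Col5a3 from -1.39 to 0.62 and Col12a1 from -1.32 to 0.79. In control organoids Col3a1 ran from -0.067 to 2.05, Col6a1 from -0.21 to 2.04 and Col12a1 from -1.90 to 0.24. The interaction of Col16a1 was -0.072 without M4, M8, M12 and M16 and -0.11 without the 6 libraries. Of 4 libraries a group, 1 or 2 hold most fibrillar reads, which limits what these comparisons can detect.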
